A study of Mus musculus with 12 samples.

Results

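Of the 24532 genes in the table, 9 are described here: Foxa1, Foxa2, Foxa3, Cebpa, Cebpb, Onecut1, Prox1, Gata4 and Creb3l3. They were chosen by gene symbol as transcription factors of hepatocyte identity outside the nuclear receptors, and all 9 passed the filter on low counts. RNA of whole liver was measured in 12 mouse libraries. The group KO_drug holds 4 Atp7b-/- mice that received an LXR agonist (LXR are the liver X receptors) in the feed. KO holds 4 Atp7b-/- mice without it, and Het holds 4 control mice with the genotype Het. All were of strain C57BL/6x129S6/SvEv and 20 wk of age. Atp7b encodes the copper-exporting ATPase whose loss causes Wilson disease. Sex and litter are absent from the labels, as are the name, dose and duration of the agonist and the deleted part of Atp7b. Whether libraries of 1 group came from separate cages or days is likewise not given, so the p-values measure only the spread between these libraries.

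Hepatocyte identity rests on a small set of transcription factors that bind each other's genes and the promoters of secreted and metabolic liver genes. The FOXA proteins (Foxa1, Foxa2, Foxa3) are forkhead pioneer factors that open liver chromatin. C/EBP alpha (Cebpa) and C/EBP beta (Cebpb) are basic leucine zipper factors, of which the first is linked to the resting, metabolically mature hepatocyte and the second to the acute phase and regeneration. HNF6 (Onecut1) is a cut-homeodomain factor of liver and bile duct development, and Prox1 is a homeodomain factor that is a corepressor of nuclear receptors. Gata4 is a zinc finger factor that is also present in endothelial and stellate cells of the liver. CREB-H (Creb3l3) is held in the endoplasmic reticulum membrane until proteases release it, and it then activates genes of lipid transport and fasting.

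Promoter sequences are shown for the 4 members whose KO libraries all lay below the Het libraries in the scaled levels given below, Foxa1, Foxa2, Cebpa and Prox1. Each line is the 250 bases before a transcription start, 5′ to 3′ on the strand of the gene, from RefSeq with build GRCm38.p6. Capitals mark matches to the searched motifs. They are the FOXA words TGTTTAC and TGTTTGC, the C/EBP word TTGCNNAA, the ONECUT word ATTGAT, the GATA word AGATAA, the CREB-H core TGACGT, the HNF4 word CAAAGTCCA and the TATA box TATAAA. None of these words lies within another, and each was searched on both strands. Foxa2 and Prox1 have further starts whose stretches are not shown. Among these, the Prox1 stretch at the outer start of the gene, chr1:190170828-190171077, held no FOXA word. The Foxa2 stretch at chr2:148045949-148046198 held none of the searched words.
Foxa1, chr12:57546112-57546361, minus strand: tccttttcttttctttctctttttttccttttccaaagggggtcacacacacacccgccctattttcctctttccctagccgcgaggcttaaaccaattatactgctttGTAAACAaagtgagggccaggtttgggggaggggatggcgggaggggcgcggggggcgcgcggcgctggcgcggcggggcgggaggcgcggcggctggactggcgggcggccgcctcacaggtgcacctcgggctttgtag
Foxa2, chr2:148046970-148047219, minus strand: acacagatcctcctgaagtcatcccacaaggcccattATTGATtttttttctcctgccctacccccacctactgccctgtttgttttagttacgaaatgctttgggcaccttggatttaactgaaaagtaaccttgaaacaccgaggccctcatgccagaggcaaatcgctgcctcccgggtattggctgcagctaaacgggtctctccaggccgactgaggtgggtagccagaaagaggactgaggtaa
Cebpa, chr7:35119043-35119292, plus strand: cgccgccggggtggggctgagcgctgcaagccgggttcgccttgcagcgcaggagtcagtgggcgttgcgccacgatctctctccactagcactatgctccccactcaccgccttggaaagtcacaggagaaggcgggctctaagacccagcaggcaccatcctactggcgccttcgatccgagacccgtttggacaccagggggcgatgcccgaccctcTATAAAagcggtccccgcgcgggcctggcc
Prox1, chr1:190169516-190169765, minus strand: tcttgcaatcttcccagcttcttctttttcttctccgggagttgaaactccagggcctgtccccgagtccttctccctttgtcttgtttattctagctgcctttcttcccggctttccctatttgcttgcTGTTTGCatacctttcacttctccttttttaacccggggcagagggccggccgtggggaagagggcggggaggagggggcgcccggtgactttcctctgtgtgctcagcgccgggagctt

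The Foxa1 stretch held GTAAACA, the reverse complement of TGTTTAC, 141 bases before the start. That word is found in 3.65% of 32851 mouse promoter windows of 300 bases (250 before and 50 after the start). The Prox1 stretch held TGTTTGC 120 bases before its start, and 5.07% of all windows hold this word. Both stretches lie inside the span of their gene, before an internal start. Creb3l3 had the same word on the antisense strand 148 bases before one of its starts. Foxa2 held ATTGAT 213 bases before the start shown (7.54% of windows), and Onecut1 held the CREB-H core on the antisense strand 140 bases before its start (7.51%). AGATAA was found once each in a Foxa2 and a Creb3l3 window, against 11.2% of all windows. TATAAA in the sense direction stood 30 bases before the Cebpa start, 36 bases before the Foxa3 start and 21 bases after the Cebpb start. On the antisense strand it stood 34 bases before a Prox1 start and 208 bases before a Foxa2 start. On either strand 5 of the 12 member windows held it, against 13.6% of all windows. This word was added after values were seen, its matches differ in strand and position, and windows of the same gene are not independent. The count is therefore not a test of enrichment.

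Windows were present for 8 of the 9 members, 12 windows in all, and Gata4 was not among them. The C/EBP and HNF4 words were in 0 of these 12 windows, against 10.8% and 0.475% of all windows, which says only that these letters are not in these windows. The 250 bases before the start held 50.8% to 81.6% G and C in the members, with the highest share in Cebpb. The median of all windows was 52.4%, with quartiles of 45.2% and 61.2%.

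All 9 genes are protein-coding, with positions from RefSeq (GRCm38.p6). Foxa1 (gene 15375) spans chromosome 12, 57540628 to 57548029, Foxa2 (15376) chromosome 2, 148042877 to 148046969, and Foxa3 (15377) chromosome 7, 19013283 to 19023539. Cebpa (12606) lies on chromosome 7, 35119293 to 35121928, and Cebpb (12608) on chromosome 2, 167688915 to 167690432. Onecut1 (15379) lies on chromosome 9, 74861921 to 74889648, and Prox1 (19130) on chromosome 1, 190118035 to 190170827. Gata4 (14463) lies on chromosome 14, 63198914 to 63271712, and Creb3l3 (208677) on chromosome 10, 81084329 to 81098872. The span of Foxa1 overlaps Ttc6, which had at most 46 counts in a library. Onecut1 overlaps Gm33562 and Gm38678, and Prox1 overlaps Prox1os. Whether the counting used strand is not given in the sources used here, so values of these 3 members may hold reads of those neighbours.

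Library totals were 16535938 to 28329751 counts. Levels are CPM (counts relative to the library size, here scaled by TMM, which assumes that most genes do not change) with the SD over 4 libraries. Calls were made with edgeR's quasi-likelihood test, where the Benjamini-Hochberg adjusted p over all 13379 tested genes was under 0.05. Atp7b ranged between 1.27 and 3.49 CPM in KO_drug, between 1.68 and 2.71 CPM in KO, and between 9.9 and 16.2 CPM in Het. The hepatocyte markers were present in every library: 12 of 12 passed the filter, and their summed level was 77700 to 96300 CPM in KO_drug, 41000 to 73200 CPM in KO and 80400 to 144000 CPM in Het. KO 5 had 81.7 CPM and KO 6 had 17.8 CPM of Xist, the RNA of the inactive X chromosome, and no other library exceeded 0.425 CPM. KO 6 also had 64.3 CPM of the Y-linked gene Ddx3y and so held both RNAs, whereas KO 5 had 0.379 CPM of it. The other libraries had 79.3 to 111 CPM of Ddx3y. For this reason the KO results were repeated without KO 5 and KO 6. Scaling by total counts in place of TMM moves the median log2 change of all genes to 0.54 in KO vs Het, against 0.02 with TMM, and to -0.36 in KO_drug vs KO, against -0.02. The calls shift with it, from 3077 higher and 2371 lower with TMM to 6909 higher and 460 lower in KO vs Het, and from 1177 higher and 1477 lower to 354 higher and 3901 lower in KO_drug vs KO. Changes below are relative to the TMM median.

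The first comparison, KO vs Het, concerns the loss of Atp7b. Foxa1, Foxa2, Cebpa and Prox1 were lower in KO, and so was Onecut1, by 1.75-fold to 2.82-fold. Foxa3, Cebpb, Gata4 and Creb3l3 did not pass the test. Thus 5 of the 9 members were called and all 5 were lower, where 40.7% of all tested genes were called, 23.0% higher and 17.7% lower. In 4 of the 9 members every KO library lay below every Het library in CPM. Of all tested genes 39.3% had no overlap, 22.2% with KO higher and 17.1% with KO lower. In FPKM, KO and Het libraries of Foxa2 and Prox1 overlapped.

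The second, KO_drug vs KO, concerns the agonist in mice without Atp7b. The only call among the 9 members was Foxa1, which was 1.75-fold higher in KO_drug, beside 19.8% of all tested genes called, 8.8% higher and 11.0% lower. Foxa2, Cebpa and Prox1 averaged 1.42-fold to 1.75-fold higher in KO_drug than in KO and Foxa3 1.5-fold lower, and these missed the threshold. In 2 of the 9, Foxa2 and Prox1, KO_drug and KO libraries did not overlap in CPM, as in 23.9% of all tested genes (11.4% with KO_drug higher, 12.5% lower). In FPKM these libraries overlapped for both genes. The third, KO_drug vs Het, sets the treated mice against the controls. Foxa3 and Onecut1 were lower in KO_drug than in Het, by 2.04-fold and 2.79-fold. These were 2 of the 9 members, beside 21.4% of all tested genes called, 13.0% higher and 8.45% lower. The same 2 members had no overlap, as had 24.6% of all tested genes (13.6% with KO_drug higher, 11.0% lower). The 3 comparisons share libraries in pairs, so their values for a gene are not independent.

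**Figure D1:**
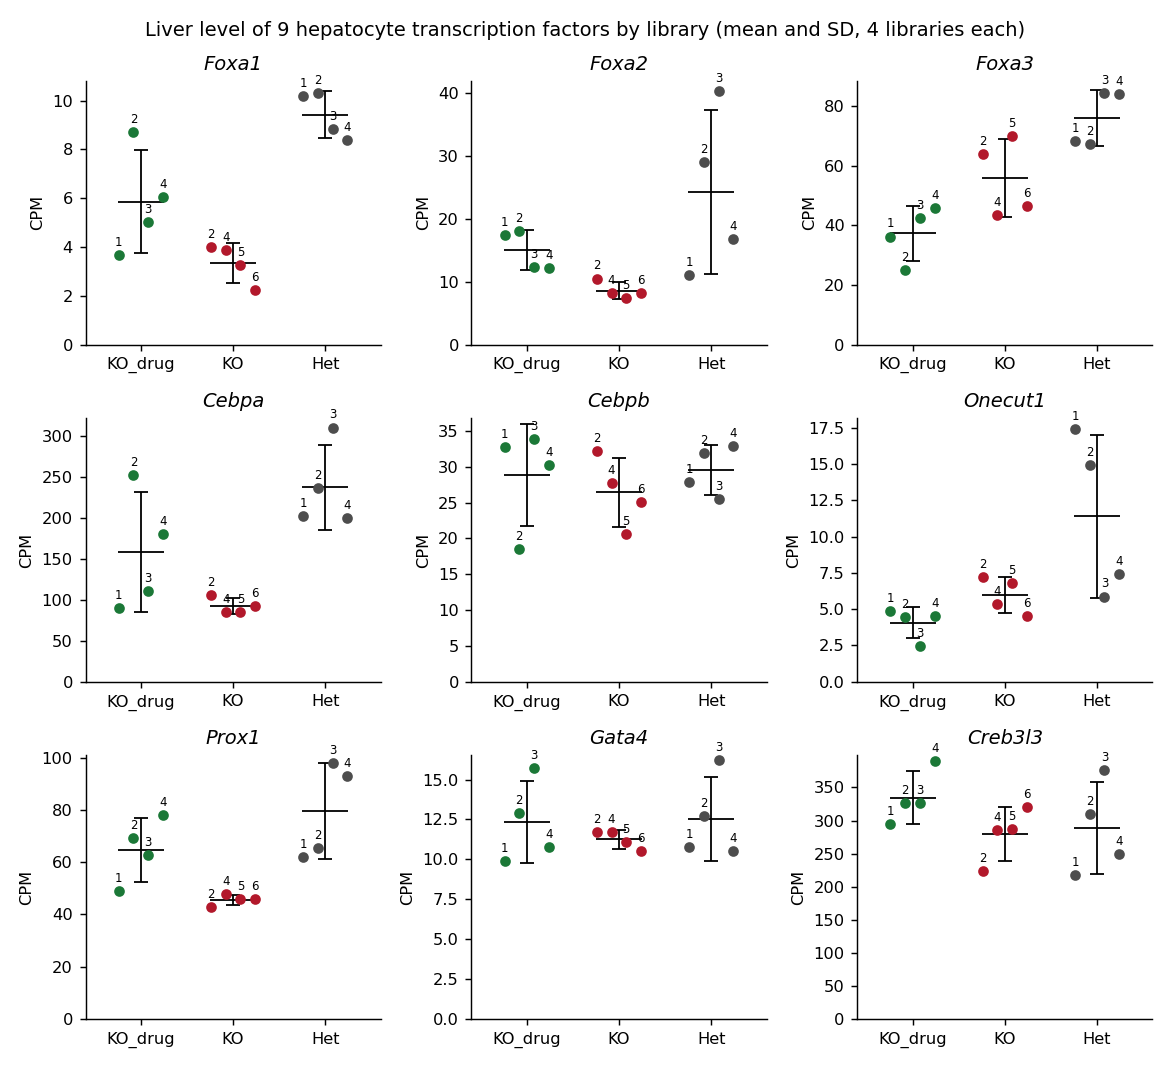
Level of each of the 9 factors in CPM (vertical axes, from 0) in every library of KO_drug, KO and Het; points are libraries with their numbers, and bars are the mean and SD of 4 libraries. KO libraries of Foxa1, Foxa2, Cebpa and Prox1 all lie below the Het libraries, whereas Foxa3 and Onecut1 have their lowest means in KO_drug (37.4 and 4.08 CPM).

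Values of the 4 libraries of a group are given below in the order 1, 2, 3 and 4 for KO_drug and Het, and 2, 4, 5 and 6 for KO.

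Foxa1, a pioneer factor of liver development, was the least abundant member per kilobase of gene model. Its level was 3.68, 8.7, 5.02 and 6.05 CPM in KO_drug, 4.02, 3.87, 3.27 and 2.24 CPM in KO, and 10.2, 10.3, 8.84 and 8.37 CPM in Het. KO and Het libraries did not overlap, KO_drug 2 lay among the Het libraries, and KO_drug 1 lay among the KO libraries. KO averaged 3.35 ± 0.808 CPM against 9.44 ± 0.988 CPM in Het (SD, n = 4 each), a log2 change of -1.49 (SE 0.26, edgeR adjusted p = 0.000631). KO_drug averaged 5.86 ± 2.13 CPM, a log2 change against KO of 0.80 (SE 0.25, edgeR adjusted p = 0.0414; two-sided exact permutation p = 0.0857). That call held in only 3 of 19 alternatives, with values of 0.39 to 0.98. It was lost, for example, without KO_drug 2 (0.55, adjusted p = 0.129), with total-count scaling (0.45, adjusted p = 0.216) and without KO 5 and KO 6 (0.61, adjusted p = 0.169). The fall in KO vs Het kept its call in all 19 alternatives, between -1.59 and -0.92.

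Foxa2, the family member tied to bile acid and glucose control, had the largest coefficient of variation of the 9 members in Het (53.6%). It stood at 17.4, 18.1, 12.4 and 12.2 CPM in KO_drug, 10.5, 8.12, 7.47 and 8.24 CPM in KO, and 11.0, 29.0, 40.2 and 16.8 CPM in Het. The lowest Het library was close to the highest KO library, and the Het libraries spanned 3.66-fold. KO was 2.82-fold lower than Het (SE of the log2 change 0.32, edgeR adjusted p = 0.00258), with means of 8.58 ± 1.32 CPM in KO and 24.2 ± 13.0 CPM in Het. KO_drug averaged 15.02 ± 3.17 CPM, and all its libraries lay above all KO libraries, which gives the smallest two-sided exact permutation p that 4 against 4 allows, 0.0286. The fit gave that difference as 0.81 (95% interval 0.18 to 1.43, edgeR adjusted p = 0.0925), which missed the threshold. With total-count scaling the difference was 0.47 (edgeR adjusted p = 0.212). The separation of the libraries also depends on the scaling. In FPKM, KO 2 (4.8) lay above KO_drug 3 (4.17), KO_drug 4 (4.55) and Het 1 (4.15).

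Foxa3, the FOXA gene with the highest FPKM in each group, had another order. Its level was 36.3, 24.9, 42.4 and 45.8 CPM in KO_drug, 64.1, 43.4, 70.2 and 46.5 CPM in KO, and 68.4, 67.5, 84.4 and 84.0 CPM in Het. KO_drug libraries were all below the Het libraries, while KO overlapped both. KO_drug averaged 37.4 ± 9.19 CPM against 76.1 ± 9.41 CPM in Het, a log2 change of -1.03 (SE 0.20, edgeR adjusted p = 0.00267), called in all 18 alternatives. Against KO, at 56.0 ± 13.1 CPM, the change was -0.59 (95% interval -0.98 to -0.20, edgeR adjusted p = 0.0544). With total-count scaling that difference was -0.92 and called (adjusted p = 0.00621), and KO vs Het turned from -0.44 (edgeR adjusted p = 0.0923) to 0.08.

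Cebpa, whose product restrains hepatocyte division, stood at 90.8, 253, 111 and 181 CPM in KO_drug, 106, 85.2, 85.6 and 92.7 CPM in KO, and 203, 237, 311 and 200 CPM in Het. The KO libraries were within 1.25-fold of each other, and the KO_drug libraries spanned 2.79-fold, from the KO range into the Het range. KO was at 92.5 ± 9.91 CPM and Het at 238 ± 51.5 CPM, a log2 change of -1.36 (SE 0.27, edgeR adjusted p = 0.00173), called in all 19 alternatives between -1.55 and -0.81. KO_drug, at 159 ± 73.7 CPM, differed from KO by 0.78 (95% interval 0.25 to 1.31, edgeR adjusted p = 0.0568). Without KO_drug 1 this was 0.98 and called (adjusted p = 0.0143), and without KO_drug 2 it was 0.47 (adjusted p = 0.178).

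Cebpb, its acute-phase relative, stood at 32.7, 18.5, 33.9 and 30.3 CPM in KO_drug, 32.2, 27.8, 20.6 and 25.1 CPM in KO, and 27.9, 31.9, 25.5 and 32.9 CPM in Het. The 3 groups overlapped throughout. The KO vs Het change was -0.16 (95% interval -0.53 to 0.20, edgeR adjusted p = 0.515) and the KO_drug vs KO change 0.13 (95% interval -0.24 to 0.49, edgeR adjusted p = 0.672). Both change sign with total-count scaling, to 0.36 and -0.21, and neither was called there.

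Onecut1, a partner of the FOXA and C/EBP factors on liver promoters, stood at 4.84, 4.48, 2.48 and 4.51 CPM in KO_drug, 7.22, 5.37, 6.77 and 4.52 CPM in KO, and 17.4, 14.9, 5.87 and 7.4 CPM in Het. Het 1 and Het 2 stood above every other library, whereas Het 3 lay within the KO range and Het 4 just above it. The counts behind these values were low, 45 to 338 per library. KO_drug, at 4.08 ± 1.08 CPM, was below all Het libraries (11.4 ± 5.63 CPM), with a log2 change of -1.48 (SE 0.34, edgeR adjusted p = 0.00721) that was called in all 18 alternatives. KO vs Het was -0.93 (SE 0.33, edgeR adjusted p = 0.0371; exact permutation p = 0.114). That call was lost in 9 of 19 alternatives, among them total-count scaling (-0.43, adjusted p = 0.324) and the fit without Het 1 (-0.65, adjusted p = 0.13).

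Prox1, the corepressor, stood at 49.1, 69.1, 62.9 and 78.1 CPM in KO_drug, 42.9, 47.7, 45.9 and 46.0 CPM in KO, and 61.9, 65.5, 98.0 and 93.1 CPM in Het. All KO libraries lay below all libraries of the other groups in CPM, and the KO libraries were within 1.11-fold of each other. In FPKM the groups overlapped, at 9.61 to 15.1 in KO_drug, 10.1 to 12.1 in KO and 9.76 to 15.7 in Het. The KO mean of 45.6 ± 2.01 CPM against 79.7 ± 18.5 CPM in Het was a log2 change of -0.80 (SE 0.17, edgeR adjusted p = 0.00245). With total-count scaling it was -0.27 (adjusted p = 0.194), so the call depends on the scaling. KO_drug, at 64.8 ± 12.2 CPM, was above KO in 4 of 4 libraries, with a change of 0.51 (95% interval 0.17 to 0.84, edgeR adjusted p = 0.0523). With total-count scaling that change was 0.16 (edgeR adjusted p = 0.483).

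Gata4 stood at 9.89, 12.9, 15.7 and 10.8 CPM in KO_drug, 11.7, 11.7, 11.1 and 10.5 CPM in KO, and 10.8, 12.7, 16.2 and 10.5 CPM in Het. Group means were 12.3 ± 2.59, 11.3 ± 0.564 and 12.6 ± 2.63 CPM in KO_drug, KO and Het, and the groups overlapped. The KO vs Het change of -0.16 (95% interval -0.50 to 0.18, edgeR adjusted p = 0.49) was 0.38 with total-count scaling (adjusted p = 0.0585).

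Creb3l3 was the most abundant member per kilobase. It stood at 294, 326, 327 and 390.0 CPM in KO_drug, 223, 286, 287 and 321 CPM in KO, and 218, 310.0, 376 and 249 CPM in Het. The groups overlapped, with a KO vs Het change of -0.05 (95% interval -0.40 to 0.30, edgeR adjusted p = 0.854) and a KO_drug vs KO change of 0.26 (95% interval -0.09 to 0.61, edgeR adjusted p = 0.331). Total-count scaling turned the KO vs Het value to 0.50 and called it (adjusted p = 0.0168), and turned KO_drug vs KO to -0.08.

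**Figure D2:**
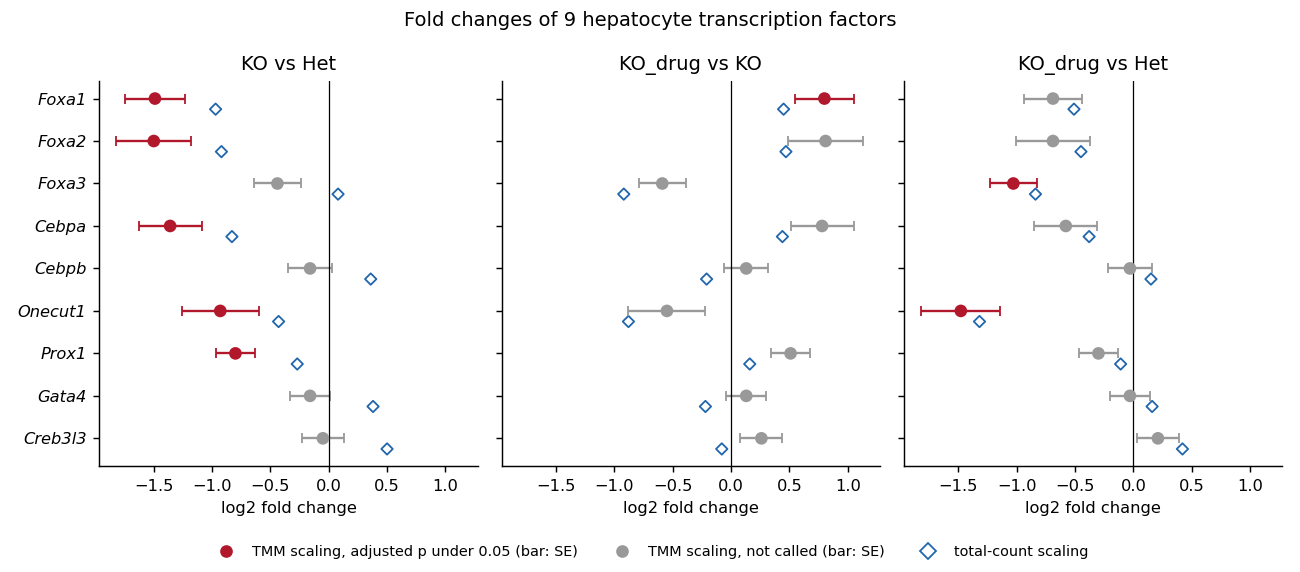
Log2 fold change of each member (horizontal axis) in each of the 3 comparisons; round points with SE bars are the TMM fit, red where the adjusted p was under 0.05, and blue diamonds are total-count scaling. The diamonds sit to the right of the points in KO vs Het, so that Foxa3, Cebpb, Gata4 and Creb3l3 cross 0, and Cebpb, Gata4 and Creb3l3 cross it in KO_drug vs KO.

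Without KO 5 and KO 6, Foxa1, Foxa2, Cebpa and Prox1 kept their calls in KO vs Het, at -1.31, -1.44, -1.37 and -0.88. Onecut1 was at -0.90 and lost its call (adjusted p = 0.113). For KO_drug vs KO this setting called 0 of the 9 members, and 1 had an unadjusted p under 0.05 in edgeR.

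Since whole liver was sequenced, fewer hepatocytes and less RNA per hepatocyte cannot be told apart. Markers of other cells moved with the groups. All 10 macrophage markers rose in KO vs Het and 7 of 10 fell in KO_drug vs KO, with summed levels of 498 to 1100 CPM in KO_drug, 1060 to 2210 CPM in KO and 445 to 600 CPM in Het. Cd68, a lysosomal protein of macrophages, averaged 9.39 ± 2.48 CPM in KO_drug, 28.9 ± 8.09 CPM in KO and 10.3 ± 1.72 CPM in Het. Neutrophil markers (7 of 7) and lymphoid markers (5 of 6) rose in KO vs Het, and 2 of 7 and 4 of 6 fell in KO_drug vs KO. Their summed levels were at most 37.8 and 2.81 CPM in KO_drug, 103 and 13.9 CPM in KO, and 12.1 and 2.18 CPM in Het. The neutrophil marker Ly6g and the natural killer cell marker Klrb1c were at 0 in KO_drug and Het.

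Stellate cell and fibroblast markers rose in 4 of 10 in KO vs Het and fell in 5 of 10 in KO_drug vs KO, with sums of 358 to 394 CPM in KO_drug, 546 to 817 CPM in KO and 391 to 504 CPM in Het. Cholangiocyte markers summed to 24.8 to 37.0 CPM in KO_drug, 56.4 to 149 CPM in KO and 27.6 to 31.6 CPM in Het, with Sctr at 0 in KO_drug and Sctr and Cldn7 at 0 in Het. In KO vs Het, 3 of 9 of them rose and 1 fell, and 2 of 9 fell in KO_drug vs KO. Sinusoidal endothelial markers overlapped between groups, at 400.0 to 572 CPM in KO_drug, 438 to 550.0 CPM in KO and 408 to 661 CPM in Het, with 2 of 10 higher and 1 lower in KO vs Het. The hepatocyte markers fell in 8 of 12 in KO vs Het (median log2 change -0.87) and rose in 4 of 12 in KO_drug vs KO (median 0.59). Total-count scaling gave 3 lower and 1 higher in KO vs Het (median -0.35), and 2 higher in KO_drug vs KO (median 0.26). Among them, Cyp2e1, an ethanol-oxidizing cytochrome, averaged 6868 ± 1820.5 CPM in KO_drug, 2845 ± 273 CPM in KO and 8417.5 ± 1159.7 CPM in Het. The part of cell makeup in the values of the 9 factors was not tested.

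Ratios of members within a library do not depend on the scaling of libraries. They were chosen after the values were seen and are given without a test, as ratios of the deposited FPKM (fragments relative to gene model length and sequencing depth). Cebpa stood at 1.60, 7.94, 1.90 and 3.45 times Cebpb in KO_drug, at 1.91, 1.77, 2.40 and 2.14 times in KO, and at 4.21, 4.28, 7.06 and 3.51 times in Het. All KO ratios lay below all Het ratios, and the KO_drug ratios spread over both ranges. Creb3l3 stood at 3.74, 1.48, 3.39 and 2.49 times Cebpa in KO_drug, 2.42, 3.87, 3.87 and 4.01 times in KO, and 1.24, 1.52, 1.40 and 1.44 times in Het. The KO ratios were again apart from those of Het, on the higher side.

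Within the Foxa family, Foxa3 made up 65.7, 52.0, 73.7 and 74.8% of the summed FPKM in KO_drug, 83.6, 80.9, 88.3 and 83.3% in KO, and 79.9, 66.2, 65.6 and 79.6% in Het. The KO shares were above all others. The FPKM ratio of Foxa2 to Foxa1 averaged 4.25 ± 1.93 in KO_drug, 4.03 ± 1.08 in KO and 3.94 ± 2.22 in Het, and the groups overlapped. Onecut1 made up 28.0, 16.5, 13.4 and 17.7% of the FPKM of Onecut1 and Onecut2 in KO_drug, 30.9, 34.7, 36.2 and 31.6% in KO, and 34.1, 42.3, 27.6 and 27.7% in Het. The share was lower in KO_drug than in KO in every library, and overlapped between KO_drug and Het at the edge.

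**Figure D3:**
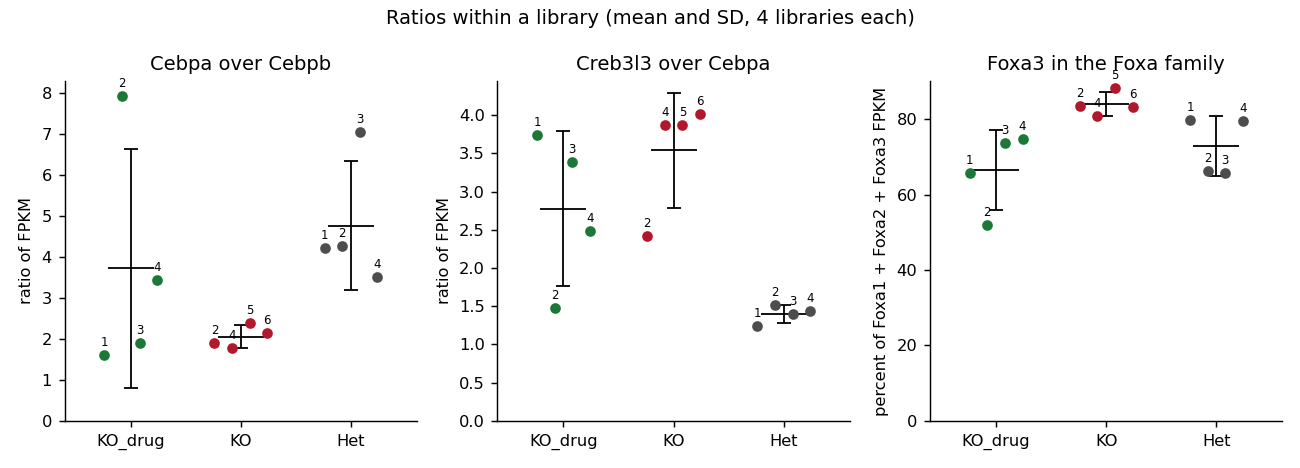
Ratios of members within each library (vertical axes, from 0), with points for libraries and bars for the mean and SD of 4 libraries. Cebpa over Cebpb averages 2.05 in KO and 4.77 in Het, Creb3l3 over Cebpa 3.54 in KO and 1.40 in Het, and Foxa3 is 84.0% of the Foxa FPKM in KO and 72.8% in Het; KO_drug spreads over both ranges in the first 2.

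Levels of different genes are comparable per length only, as FPKM. Mean FPKM in KO_drug was 113 for Creb3l3, 46.6 for Cebpa, 14.6 for Cebpb, 14.1 for Foxa3, 12.1 for Prox1, 5.47 for Foxa2, 2.76 for Gata4, 1.74 for Onecut1 and 1.41 for Foxa1. In KO the order was Creb3l3 at 121, Cebpa at 34.6, Foxa3 at 27.1, Cebpb at 17.2, Prox1 at 10.9, Foxa2 at 3.99, Gata4 at 3.27, Onecut1 at 3.24 and Foxa1 at 1.04. In Het it was Creb3l3 at 84.8, Cebpa at 60.9, Foxa3 at 25.4, Cebpb at 13.3, Prox1 at 13.1, Foxa2 at 7.49, Onecut1 at 4.36, Gata4 at 2.49 and Foxa1 at 2.02. Creb3l3 was first and Foxa1 last in each group. Neighbours whose library ranges overlapped in Het were Cebpb and Prox1, Prox1 and Foxa2, Foxa2 and Onecut1, Onecut1 and Gata4, and Gata4 and Foxa1. In KO the overlapping neighbours were Cebpa and Foxa3, Foxa2 and Gata4, and Gata4 and Onecut1. In KO_drug they were Cebpb and Foxa3, Foxa3 and Prox1, and Onecut1 and Foxa1.

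The 2 KO_drug libraries with the most Cebpa and Foxa1 also stood apart in genes of the circadian clock, a list added after the values were seen. Dbp, a clock output factor, stood at 0.303, 37.9, 2.48 and 17.9 CPM in KO_drug, 6.65, 3.26, 0.729 and 3.46 CPM in KO, and 7.01, 1.46, 3.02 and 6.73 CPM in Het. Arntl, whose product drives the clock, stood at 33.4, 4.01, 27.9 and 6.53 CPM in KO_drug, 13.3, 19.7, 24.5 and 23.1 CPM in KO, and 16.2, 39.1, 38.2 and 23.8 CPM in Het. KO_drug 2 and KO_drug 4 had the highest Dbp and the lowest Arntl of all 12 libraries, and also the highest Cebpa and Foxa1 of their group. Within KO, KO 2 likewise had the highest Cebpa (106 CPM), Foxa1 (4.02 CPM) and Dbp (6.65 CPM) and the lowest Arntl (13.3 CPM). The Het libraries did not share this order. The highest Cebpa of Het, in Het 3, stood beside neither the highest nor the lowest Dbp. Het 2 had the highest Foxa1 of Het (10.3 CPM) beside the lowest Dbp and the highest Arntl. Het 1 and Het 4, with the highest Dbp and the lowest Arntl of Het, had the least Cebpa of Het, at 203 and 200 CPM. Of 14 clock genes, 3 were called lower in KO vs Het, beside 17.7% of all tested genes. For the agonist comparison, KO_drug vs KO, edgeR called 0 of 14, beside 19.8% of all tested genes. Of the 14, 3 had an unadjusted p under 0.05 in edgeR, and DESeq2 called 2. The labels give no time of day, and the part of the clock in the values of Cebpa and Foxa1 was not tested.

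**Figure D4:**
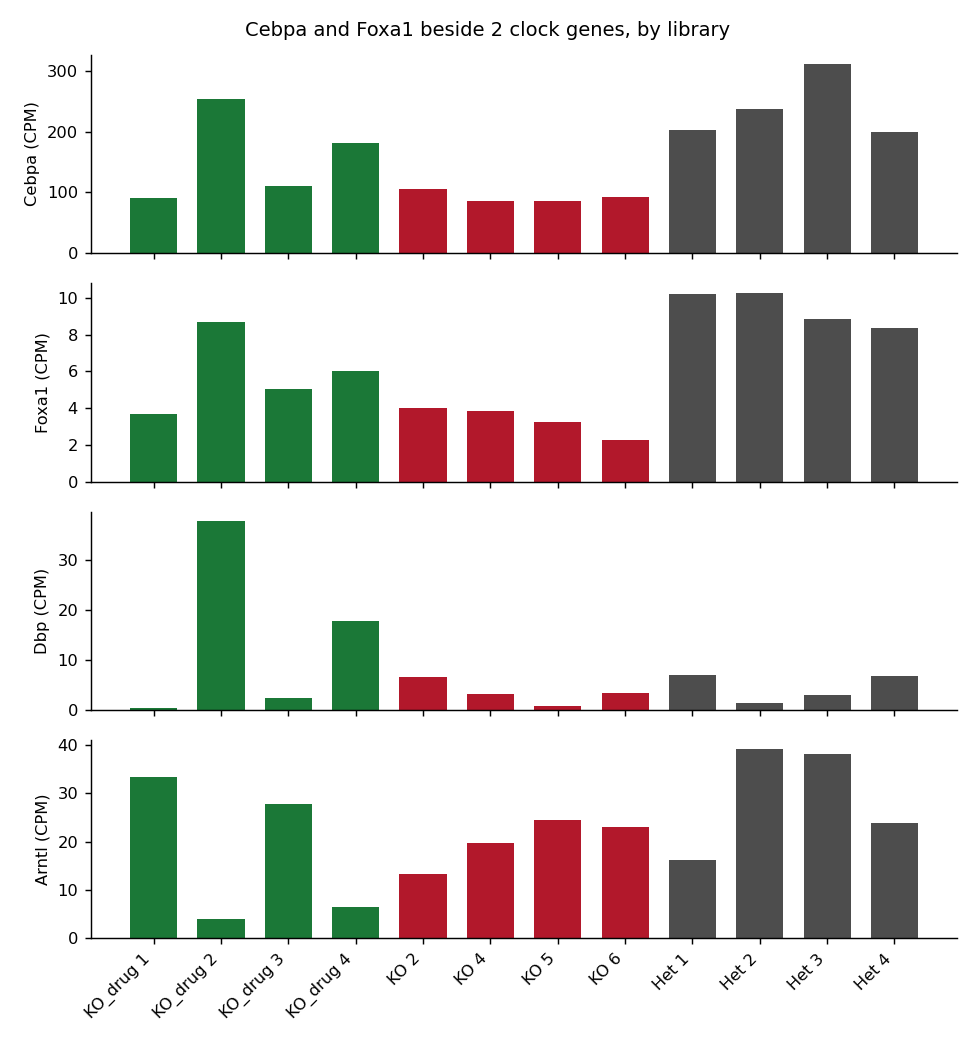
Levels of Cebpa, Foxa1, Dbp and Arntl in CPM (vertical axes, from 0) in each library, in the order KO_drug, KO and Het; each bar is 1 library. KO_drug 2 and KO_drug 4 stand highest in Dbp at 37.9 and 17.9 CPM and lowest in Arntl at 4.01 and 6.53 CPM, and highest of KO_drug in Cebpa at 253 and 181 CPM.

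Of the other factors of the hepatocyte network, a list of 16, 10 were called lower in KO vs Het, beside 17.7% of all tested genes. The median log2 change of the list was -0.65 beside 0.02 over all tested genes. Like the other gene lists, it was chosen with earlier results of these data known, so its counts are not independent support. With total-count scaling 2 were lower and 1 was higher, and the median was -0.13. Hnf4a, the nuclear receptor at the centre of the network, averaged 439 ± 23.8 CPM in KO against 838 ± 79.3 CPM in Het (log2 -0.93, SE 0.13, edgeR adjusted p = 0.000194). Atf5, a leucine zipper factor of the liver, averaged 40.4 ± 5.35 CPM in KO against 71.2 ± 12.7 CPM in Het (log2 -0.82, SE 0.15, edgeR adjusted p = 0.000896), and with total-count scaling it was not called (adjusted p = 0.0905).

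With the agonist, KO_drug vs KO, 2 of the 16 rose, beside 8.8% of all tested genes called higher. The median was 0.21 beside -0.02 over all tested genes. With total-count scaling 1 was higher and 2 were lower, and the median turned to -0.14. Tbx3, a T-box factor of pericentral hepatocytes, stood at 16.2, 21.9, 22.3 and 23.5 CPM in KO_drug, 9.14, 6.34, 5.42 and 6.92 CPM in KO, and 8.61, 10.1, 14.7 and 16.1 CPM in Het. It was 3.01-fold higher in KO_drug than in KO (log2 1.59, SE 0.22, edgeR adjusted p = 0.000867) and all KO_drug libraries were also above all Het libraries. Nfia, a nuclear factor I protein, was at 73.4 ± 11.5 CPM in KO_drug and 47.4 ± 2.06 CPM in KO (log2 0.63, SE 0.14, edgeR adjusted p = 0.00918), a call lost with total-count scaling (adjusted p = 0.235). Hnf4a was at 486 ± 63.5 CPM in KO_drug, which was 1.73-fold lower than in Het (log2 -0.79, SE 0.13, edgeR adjusted p = 0.00106) and differed from KO by 0.15 (edgeR adjusted p = 0.473).

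**Figure D5:**
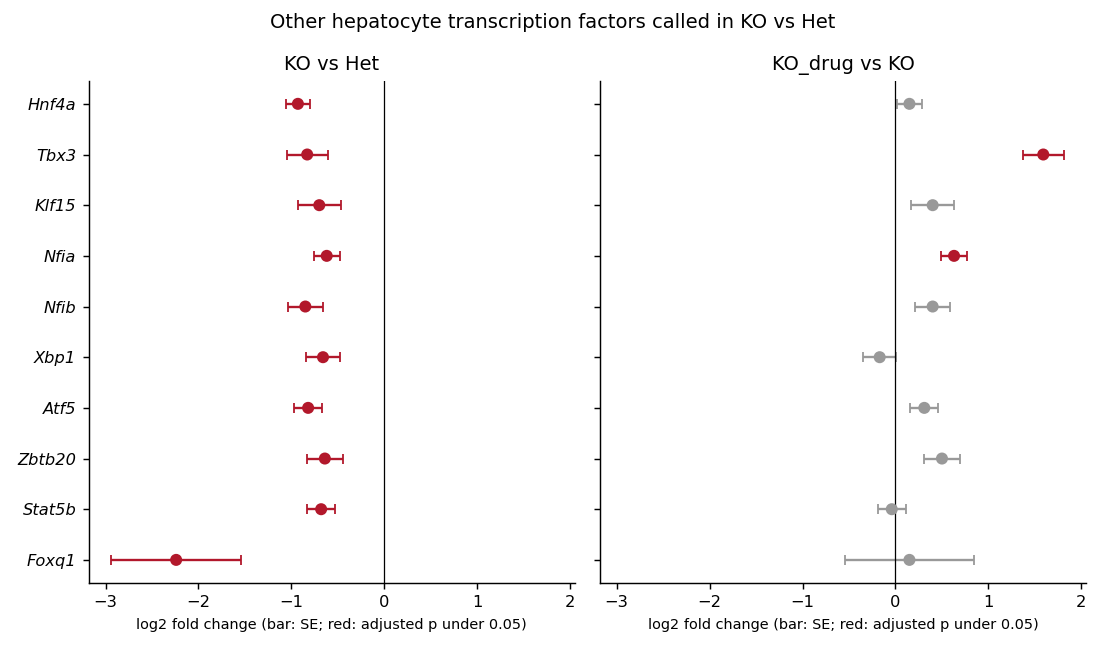
Log2 fold change with SE (horizontal axes) of the 10 of 16 other hepatocyte transcription factors that were called in KO vs Het, shown there and in KO_drug vs KO; red points had an adjusted p under 0.05. In KO vs Het the 10 red points are all to the left of 0, with Hnf4a at -0.93. In KO_drug vs KO the 2 red points, Tbx3 at 1.59 and Nfia at 0.63, are to the right. With total-count scaling 2 of the 10 remain lower in KO vs Het. The 10 were picked by their KO vs Het call, and both panels use the same KO libraries.

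Paralogs of the members in the same families numbered 16, of which 10 passed the filter and Cebpe, Onecut3, Gata1, Gata3, Gata5 and Creb3l4 did not. In KO vs Het 2 of 10 were lower, beside 17.7% of all tested genes, with a median of -0.02. Onecut2, the sister of Onecut1, averaged 87.8 ± 21.4 CPM in KO against 163 ± 58.5 CPM in Het (log2 -0.89, SE 0.26, edgeR adjusted p = 0.0143). Cebpg was at 48.1 ± 3.97 CPM in KO and 67.3 ± 7.01 CPM in Het (log2 -0.49, SE 0.13, edgeR adjusted p = 0.00913), which turned to 0.03 with total-count scaling. With that scaling 3 of 10 were higher, and Onecut2 was not called (adjusted p = 0.246), as in 3 other alternatives. In KO_drug vs KO, edgeR called 0 of the 10, beside 19.8% of all tested genes. Of the 10, 3 had an unadjusted p under 0.05 in edgeR, and DESeq2 called 1.

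Partners and processing enzymes of the factors were 11 in the table. Trib2, a pseudokinase that targets C/EBP alpha for degradation, rose to 4.73 ± 1.43 CPM in KO, against 2.93 ± 0.445 CPM in Het (log2 0.69, SE 0.25, edgeR adjusted p = 0.0419). That call was lost in 9 of 19 alternatives, among them the fit without the filter (adjusted p = 0.0548) and the fit without KO 4 (0.53, adjusted p = 0.125). Its more abundant relative Trib1 averaged lower in KO, at 20.2 ± 9.04 CPM against 32.9 ± 9.99 CPM in Het. That difference was not called (log2 -0.70, SE 0.32, edgeR adjusted p = 0.099). The other calls in KO vs Het were 3 of 11 lower, beside 17.7% of all tested genes. Among them were the corepressor Ncor1 (-0.49, adjusted p = 0.00242) and the histone deacetylase Hdac3 (-0.35, adjusted p = 0.0235), which turn to 0.03 and 0.16 with total-count scaling. Hdac3 lost its call in 7 of 19 alternatives. Mbtps1, the site-1 protease that cleaves CREB-H, was at 88.9 ± 2.7 CPM in KO_drug and 72.8 ± 3.92 CPM in KO (log2 0.29, SE 0.09, edgeR adjusted p = 0.0359), and turned to -0.05 with total-count scaling. It was the only one of 11 called in KO_drug vs KO, beside 19.8% of all tested genes, and the call was lost in 15 of 19 alternatives.

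Genes whose promoters are textbook sites of these factors were 25 in the table. In KO vs Het 11 of 25 were lower, beside 17.7% of all tested genes, with a median of -0.77. With total-count scaling 3 were lower and 3 higher, with a median of -0.24. Rbp4, the plasma retinol carrier, averaged 398 ± 70.5 CPM in KO against 1211 ± 84.7 CPM in Het (log2 -1.61, SE 0.19, edgeR adjusted p = 3.69e-05). Otc, an enzyme of the urea cycle, averaged 326 ± 54.9 CPM in KO against 633 ± 118 CPM in Het (log2 -0.96, SE 0.17, edgeR adjusted p = 0.000889). The KO_drug vs KO comparison had 2 of 25 higher, beside 8.8% of all tested genes, with a median of 0.38. Total-count scaling gave 1 higher and 2 lower there, with a median of 0.04. Cyp7a1, the rate-limiting enzyme of bile acid synthesis and in mice a known LXR target, was at 184 ± 73.0 CPM in KO_drug and 39.4 ± 14.3 CPM in KO (log2 2.22, SE 0.47, edgeR adjusted p = 0.00632). Cps1, the entry enzyme of the urea cycle, was at 4790.4 ± 500.2 CPM in KO_drug and 2503 ± 482 CPM in KO (log2 0.94, SE 0.29, edgeR adjusted p = 0.0379), and the call was lost in 12 of 19 alternatives, among them total-count scaling (adjusted p = 0.069).

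Targets of CREB-H were listed as 10 genes. In KO vs Het 3 of 10 were higher and 1 was lower, with a median of -0.01. Of all tested genes 23.0% were called higher and 17.7% lower there. Total-count scaling gave 3 higher and 0 lower there, with a median of 0.53. Cidec, a lipid droplet protein, averaged 74.97 ± 26.6 CPM in KO_drug, 21.7 ± 16 CPM in KO and 0.77 ± 0.57 CPM in Het. It was higher in KO than in Het (log2 4.80, SE 0.67, edgeR adjusted p = 0.000151) and higher in KO_drug than in KO (log2 1.80, SE 0.52, edgeR adjusted p = 0.0287), where the call was lost in 5 of 19 alternatives. Apoc2, the activator of lipoprotein lipase, averaged 543 ± 178 CPM in KO against 276 ± 63.2 CPM in Het (log2 0.98, SE 0.24, edgeR adjusted p = 0.00656), a call lost without KO 5 and KO 6 (adjusted p = 0.073). Crp, an acute phase protein, was lower in KO, at 185 ± 59.2 CPM against 297 ± 20.6 CPM in Het (log2 -0.68, SE 0.23, edgeR adjusted p = 0.0312), and the call was lost in 10 of 19 alternatives, among them total-count scaling (adjusted p = 0.596). Fgf21, a fasting hormone and a textbook CREB-H target, averaged 1.92 ± 0.921 CPM in KO and 1.62 ± 1.53 CPM in Het (edgeR adjusted p = 0.793); it was named after its value was seen. Cidec was the 1 of 10 called in KO_drug vs KO, beside 19.8% of all tested genes, and the median there was -0.21. Total-count scaling gave 1 higher and 1 lower in that comparison, with a median of -0.56.

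Profiles over the 12 libraries were compared by the root mean square difference of log2 CPM, each gene centred on its own mean, among 12184 genes that averaged 1 CPM or more. The nearest to Cebpa were Hykk (0.144) and Fam214a (0.213), where Cebpa itself varied by 0.664 about its mean. Nearest to Foxa1 were Cecr2 (0.217) and Rhobtb3 (0.233), and to Foxa2 Abcb11 (0.302), the bile salt export pump, and Serpinf1 (0.318). Foxa3 was nearest to Plcb3 (0.248) and Ints5 (0.26), Onecut1 to Dnajb1 (0.33) and Mfap3l (0.348), and Prox1 to Itch (0.163) and Ubr2 (0.18). Of the 3 members that varied least, Creb3l3 was nearest to Lace1 (0.117) and Llgl2 (0.119), Gata4 to Klhl12 (0.143) and Ftsj1 (0.145), and Cebpb to Fam133b (0.147) and Mios (0.151). Among the members themselves, Foxa1 and Cebpa were 0.285 apart, where they varied by 0.693 and 0.664 about their own means. Gata4 and Creb3l3 were 0.253 apart, which is no less than their own variation of 0.216 and 0.252.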

How the data were processed

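Whole-liver RNA of 12 mice in 3 groups of 4 was sequenced. The labels' protocols name the RNeasy mini kit for RNA and TruSeq Stranded Total RNA for libraries. FastQC 0.11.7, StringTie 2.1.3b and build mm10 come from the submitters' processing notes. Not given in the sources used here: aligner, annotation release and strand setting. For 24532 genes and each library, the deposited table has whole-number read counts that were not normalized, and the authors' FPKM. Its 3 columns without a name were not used.

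A quasi-likelihood model of edgeR 4.0.16 (R 4.3.3) was fitted to the 12 libraries together, with a mean per group and TMM, after filterByExpr (minimum count 10, minimum total count 15) set aside 11153 genes. The 3 comparisons were two-sided contrasts adjusted by Benjamini-Hochberg over 13379 genes. SEs came from the F statistic. The 95% intervals came from the SE with the quantile of a normal distribution, so they are narrower than the quasi-likelihood test implies. For Cebpa in KO_drug vs Het, the interval of -1.11 to -0.05 was wholly negative at an unadjusted edgeR p of 0.0507. Single levels were compared by an exact permutation test (scipy 1.17.1). The fit was tested on simulated data. Alternatives were total-count scaling, DESeq2 1.42.0, no filter, limma 3.58.1 on log2(FPKM + 0.1), the replicate block, only the 2 groups compared, leaving out KO 5 with KO 6, and leaving out each library.

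The members and gene lists were chosen with earlier results of these data known. The clock list, the ratios and the TATA box were added after values were seen. The rule for named list genes was up to 2 higher and 2 lower called genes with the smallest adjusted p per list, in KO vs Het and in KO_drug vs KO. For marker lists only some of these are named, and the choice of those was made after values were seen. Fgf21, Trib1, Xbp1, Stat5b, Foxq1, Dbp and Arntl were also named after their values were seen. The listed symbols Tf and Cop1 were not matched and are not used here. Some genes counted in the lists are not reported here by name. Totals of 16535938 to 28329751 counts per library set the counting precision.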

Additional observations from a re-analysis of the deposited data

Results flagged for a closer look

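In Onecut1, KO_drug 3 stood apart below the other KO_drug libraries, at 2.48 CPM against 4.48 CPM in the next lowest, a gap of 0.846 of the group's range. In the ratio of Creb3l3 to Cebpa FPKM, KO 2 stood apart below the other KO libraries, at 2.42 against 3.87, a gap of 0.913 of the range. Both gaps exceeded Dixon's 95% critical value for 4 values. Of 48 groups of 4 examined, chance flags about 1 in 20.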

How the results depend on the processing

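Leaving out 1 library at a time, KO vs Het had 4 to 6 members called and 4687 to 5597 genes, against 5 and 5448. KO_drug vs KO had 0 to 3 members, against 1, and 1632 (without KO_drug 3; 1633 without KO 4) to 3066 genes, against 2654. KO_drug vs Het had 2 to 4 members, against 2, and 2247 to 2863 genes, against 2865, with 4 without KO_drug 2, where Foxa1 (-0.94) and Cebpa (-0.89) were added. The count of 0 in KO_drug vs KO arose without Het 2, Het 4, KO 2, KO 5 or KO_drug 2, with 3 to 5 members at an unadjusted p under 0.05 in edgeR. The replicate block treats equal title numbers as sets. In their deviations from group means, libraries with equal numbers correlated at -0.0346 to 0.136 and those with unequal numbers at -0.181 to 0.22. These values cannot decide whether the numbers pair the libraries, and the labels do not say. With the block, KO vs Het had 3 members, without Foxa2 (-1.25, adjusted p = 0.0578) and Onecut1, and KO_drug vs KO 0 members and 1741 genes. In KO_drug vs KO, DESeq2 called 4 members, the 2-group fit 2, and the unfiltered fit and the fit without KO 5 and KO 6 called 0. At an unadjusted p under 0.05, edgeR had 5 members without the filter, 3 with the block and 1 without KO 5 and KO 6. Total-count scaling and limma on FPKM called 4255 and 4781 genes there. Total-count scaling and FPKM turned KO vs Het to 0.08 and 0.07 in Foxa3, 0.36 in Cebpb, 0.38 in Gata4, and 0.50 and 0.51 in Creb3l3. In the KO_drug vs KO comparison they gave -0.21 and -0.25 in Cebpb, -0.22 and -0.24 in Gata4, and -0.08 and -0.09 in Creb3l3. In KO_drug vs Het they gave 0.15 and 0.11 in Cebpb and 0.16 and 0.14 in Gata4. They also turned Cebpg (0.03 and 0.05), Ncor1 (0.03 and 0.05) and Hdac3 (0.16 and 0.19) in KO vs Het, and Mbtps1 (-0.05 and -0.06) in KO_drug vs KO. The replicate block turned Cebpb to 0.07 in KO vs Het, while in KO_drug vs KO it turned Cebpb to -0.12 and Gata4 to -0.02, and leaving out KO 5 and KO 6 turned Cebpb to -0.02. Over single left-out libraries, Creb3l3 spanned -0.16 to 0.10 in KO vs Het and Gata4 -0.01 to 0.22 in KO_drug vs KO. For KO_drug vs Het, Cebpb spanned -0.12 to 0.13 and Gata4 -0.17 to 0.11. Where calls changed otherwise the cause was not tested. Of 504 values of members under alternatives, 423 kept direction and side of the threshold. Low counts limit Onecut1 and Foxa1, at as few as 45 and 53 per library.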

Other observations

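Foxa2 stood at 11.0, 29.0, 40.2 and 16.8 CPM in Het 1, 2, 3 and 4. Foxq1, another forkhead factor, stood at 2.89, 50.2, 57.1 and 9.74 CPM in the same libraries, the same order. Cyp7a1 stood at 166, 90.4, 29.4 and 129 CPM, the opposite order. These genes were picked after their values were seen, and 4 livers give no test.

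The KO level of Foxq1 was below that of Het by 4.73-fold (log2 -2.24, SE 0.70, edgeR adjusted p = 0.0209), at 5.78 to 6.8 CPM in KO. The KO libraries lay between Het 1 and Het 4, and Het 2 and Het 3 lay far above.

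Xbp1, a factor of the secretory apparatus, fell to 197 ± 47.0 CPM in KO, against 311 ± 23.2 CPM in Het (log2 -0.66, SE 0.18, edgeR adjusted p = 0.00969), and stood at 176 ± 29.3 CPM in KO_drug (KO_drug vs Het log2 -0.82, SE 0.18, edgeR adjusted p = 0.005). Stat5b, the growth hormone signal transducer, was likewise lower in KO_drug than in Het, at 44.4 ± 6.12 CPM against 73.0 ± 13.0 CPM (log2 -0.72, SE 0.15, edgeR adjusted p = 0.00383). With total-count scaling the KO vs Het difference of Xbp1 was -0.13 and not called, while both KO_drug vs Het calls held (adjusted p = 0.0351 and 0.0143). These were named after their values were seen.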
